A study of Rattus norvegicus with 26 samples.

Results

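Microglia are the resident macrophages of the brain, and 43 genes that mark them, act in them or encode the neuronal and stromal signals they receive were followed through the dentate gyrus (DG) of the hippocampus. The members were taken from a fixed list of gene symbols and fall into 8 roles: homeostatic receptors and markers, myeloid identity, ITAM signalling, transcription factors, the haematopoietic cytoskeleton, activation, TAM receptors with Gas6, and ligands. Of the 43 genes, 42 were measured among 17910 gene IDs, and 41 of them passed the filter of a mean of at least 5 normalized counts over all rats, as 15595 genes did in all. Il1b, which encodes interleukin 1 beta, was below that filter, with values from 0 to 7.39 over the 26 rats, and the level of Dock2 was not analysed here.

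The RNA came from male F344 rats 6 months of age, 1 library per rat, with tissue from a single hemisphere taken after behavioral testing. In the Veh group (10 rats) the animals received gavage with vehicle and belonged to an ongoing study of brain aging. Rats of the Dox group (8 rats) were given doxorubicin (Dox), an anthracycline used in chemotherapy, at 2 mg/kg once weekly for 4 doses, and those of the Dox + ABT group (8 rats) had the same Dox course plus gavage with 12 mg/kg of the senolytic ABT-263, which blocks anti-apoptotic proteins of the Bcl-2 family, for 5 days in alternate weeks. No transgene or deletion was used. Both comparisons against Veh share the same 10 control rats.

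In the adult brain microglia survive through the receptor CSF1R, which binds CSF1 and IL34, and neurons restrain them through CX3CL1, read by CX3CR1, and CD200. Purinergic receptors such as P2RY12 and P2RY13 let them sense nucleotides, TREM2 and the receptor kinases MERTK and AXL take part in the recognition and uptake of debris, and the transcription factors PU.1 (Spi1), RUNX1 and IRF8 set their identity. Homeostatic genes commonly decrease and activation genes commonly increase when microglia respond to injury.

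The libraries differed in ways that touch these genes. Estimated reads per rat ran from 10158600 to 24319700. The sign of a principal component that left out the members was used to divide the rats into a first kind of library (4 Veh, 5 Dox and 6 Dox + ABT rats) and a second kind (6 rats of Veh, 3 of Dox and 2 of Dox + ABT). The second kind had a larger share of ribosomal protein transcripts, 1.65% ± 0.296 (SD, n = 11) of the normalized counts against 1.03% ± 0.157 (SD, n = 15). The scores did not part at 0, where Dox + ABT rat 3 (0.28) lay beside first-kind rats and apart from the other second-kind rats. The mitochondrial share had a mean of 14.7% in the second kind (10.6% to 19.4%, n = 11) and 8.77% in the first (6.71% to 14.1%, n = 15). By group it was 13.5% ± 4.39 (SD, n = 10) in Veh, 9.66% ± 2.67 (SD, n = 8) for the Dox rats and 10.1% ± 3.35 (SD, n = 8) for Dox + ABT. Within groups the median member was 0.29 higher on the log2 scale in the second kind, while the median over all tested genes was 0.01 higher. The component was taken on deviations from each group's mean, so a kind places a rat only relative to its own group. The numbers of each kind per group are therefore no measure of a difference between the groups. Fits with the kind as a covariate were also made.

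Dox rats 1 and 2, both of the first kind, stood apart from the other 24 rats in many members. Both were below every other rat in 12 of the 41 tested members and above every other rat in 3, whereas over all 15595 tested genes both were below in 4.71% and above in 6.43%. Their libraries were not duplicates of each other. The correlation between them was 0.981 on the log2 scale, and pairs of libraries in general had correlations up to 0.986. The comparisons that include the Dox group were therefore also fitted without this pair, an alternative chosen after the values had been seen. What set the pair apart was not tested.

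**Figure D1:**
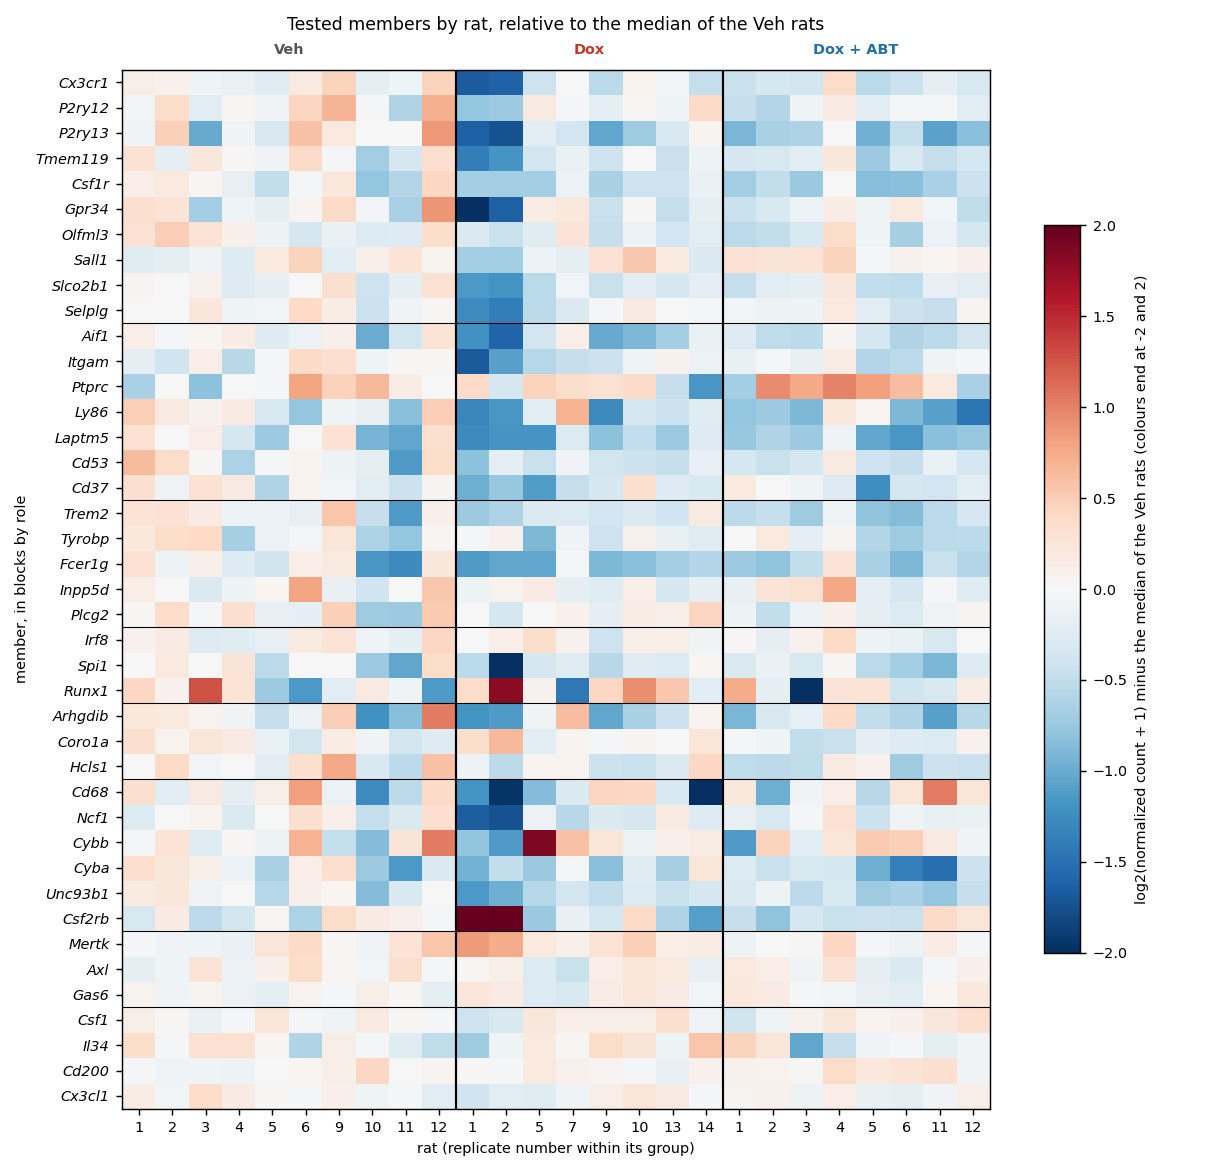
Heat map of the 41 tested members (rows, in blocks by role) in the 26 rats (columns, by group and replicate number), as log2(normalized count + 1) minus the median of the Veh rats. Dox rats 1 and 2 are blue over most homeostatic rows and red for Csf2rb, at 250.5 and 249 normalized counts where the other 24 rats had 11.8 to 35.0.

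Dox against Veh asked what the chemotherapy did to these transcripts. With all rats, 8 of the 41 members were lower in Dox at p under 0.01 and 0 were higher, where 1.85% of all tested genes were lower and 1.02% higher. The 8 were the homeostatic genes Cx3cr1, P2ry13, Tmem119 and Slco2b1, the identity genes Aif1, Itgam and Laptm5, and Unc93b1. In all, 32 of the 41 fold changes were below 0, with a median of -0.29 on the log2 scale against 0.00 over all tested genes. After Benjamini-Hochberg adjustment over all tested genes no member was under 0.05 (adjusted p from 0.198 to 0.318 for the 8), and 15 members had an unadjusted p under 0.05. Without Dox rats 1 and 2, the count of members past p under 0.01 was 0 of 41, beside 0.789% lower and 0.372% higher over all genes, so that calls became fewer in general. Of the members 6 had a p under 0.05, 30 fold changes were below 0 and the median was -0.18. With all rats and library kind as a covariate, 6 of the 41 were lower, beside 240 of all 15595 genes, and the median was -0.19. In whole tissue, fewer microglia and less RNA per microglial cell cannot be told apart. The 8 and 10 rats of these groups overlapped in every member.

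Among the 10 homeostatic members, all fold changes of Dox against Veh were below 0 (median -0.46) and 4 passed. Without Dox rats 1 and 2, 9 of the 10 were below 0 (median -0.24) and 0 passed. Cx3cr1 encodes the receptor for the neuronal chemokine CX3CL1. Its normalized counts ran from 405 to 656 in Veh (median 482), from 151 to 506 in Dox (median 353) and from 332 to 620.1 in Dox + ABT (median 376). Dox rats 1 and 2, at 151 and 156, were far below all others, and the remaining 6 Dox rats ran from 332 to 506. With the pair, 5 of 8 Dox rats were below every Veh rat, as were 6 of 8 Dox + ABT rats. Cx3cr1 fell by 0.64 ± 0.19 (SE) on the log2 scale in Dox (limma, p = 0.00274, adjusted p = 0.244). The difference without the pair was -0.28 (p = 0.0409).

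P2ry13, a receptor for adenosine diphosphate, had 29.7 to 113 normalized counts in Veh (median 61.1), 17.6 to 63.7 in Dox (median 41.9) and 28.6 to 61.4 in Dox + ABT (median 36.2). In 7 of 8 rats of each Dox-treated group the value was below the Veh median, and 3 Dox rats were below every Veh rat. P2ry13 fell by 0.81 ± 0.24 (SE) on the log2 scale in Dox (limma, p = 0.00224, adjusted p = 0.225). The difference was -0.50 (p = 0.0340) without Dox rats 1 and 2.

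Slco2b1 encodes an organic anion transporter that is used as a microglial marker. It ran from 408 to 676 in Veh (median 543), from 237 to 524 in Dox (median 411) and from 381 to 637 in Dox + ABT (median 467). All 8 Dox rats were below the Veh median and 4 of them below every Veh rat. The gene fell by 0.49 ± 0.14 (SE) on the log2 scale in Dox (limma, p = 0.00163, adjusted p = 0.198), with -0.27 (p = 0.0267) when the pair was left out. Of the 8 members called in this comparison, Cx3cr1, P2ry13, Slco2b1 and Aif1 stayed past p under 0.01 in each of the 26 fits that left out a single rat.

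Tmem119, a transmembrane protein used to tell microglia from other macrophages, had 272 to 578 normalized counts in Veh (median 442), 169 to 440.2 in Dox (median 337) and 265 to 519 in Dox + ABT (median 350.4). Again all 8 Dox rats were below the Veh median, but only Dox rats 1 and 2 were below the Veh range. It fell by 0.50 ± 0.17 (SE) on the log2 scale (limma, p = 0.00675, adjusted p = 0.307). The call was lost without Dox rat 1 or 2 and without Veh rat 1, 3, 6 or 12 (p up to 0.0247), without both Dox rats (-0.24, p = 0.105) and with library kind as a covariate (-0.41, p = 0.0111).

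The other 6 homeostatic members did not pass in Dox against Veh. Csf1r, the receptor for CSF1 and IL34, had 1367 to 3116 normalized counts in Veh (median 2329), 1439.6 to 2145 in Dox (median 1621) and 1290.3 to 2318 in Dox + ABT (median 1462). Every Dox rat was below the Veh median and none was below the lowest Veh rat, and here Dox rats 1 and 2 were near the rest of their group. The difference was -0.37 ± 0.14 (SE; p = 0.0152, adjusted p = 0.383), and -0.30 (p = 0.0704) without that pair. Gpr34 (-0.58, p = 0.0303) and Selplg (-0.44, p = 0.0147), a lysophosphatidylserine receptor and the selectin ligand PSGL-1, were below all other rats in Dox rats 1 and 2, and without them the differences were -0.15 and -0.14. P2ry12 (-0.27), Olfml3 (-0.28) and the transcription factor gene Sall1 (-0.13) had p-values from 0.0601 to 0.366. Sall1 was 0.06 above Veh without the pair.

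**Figure D2:**
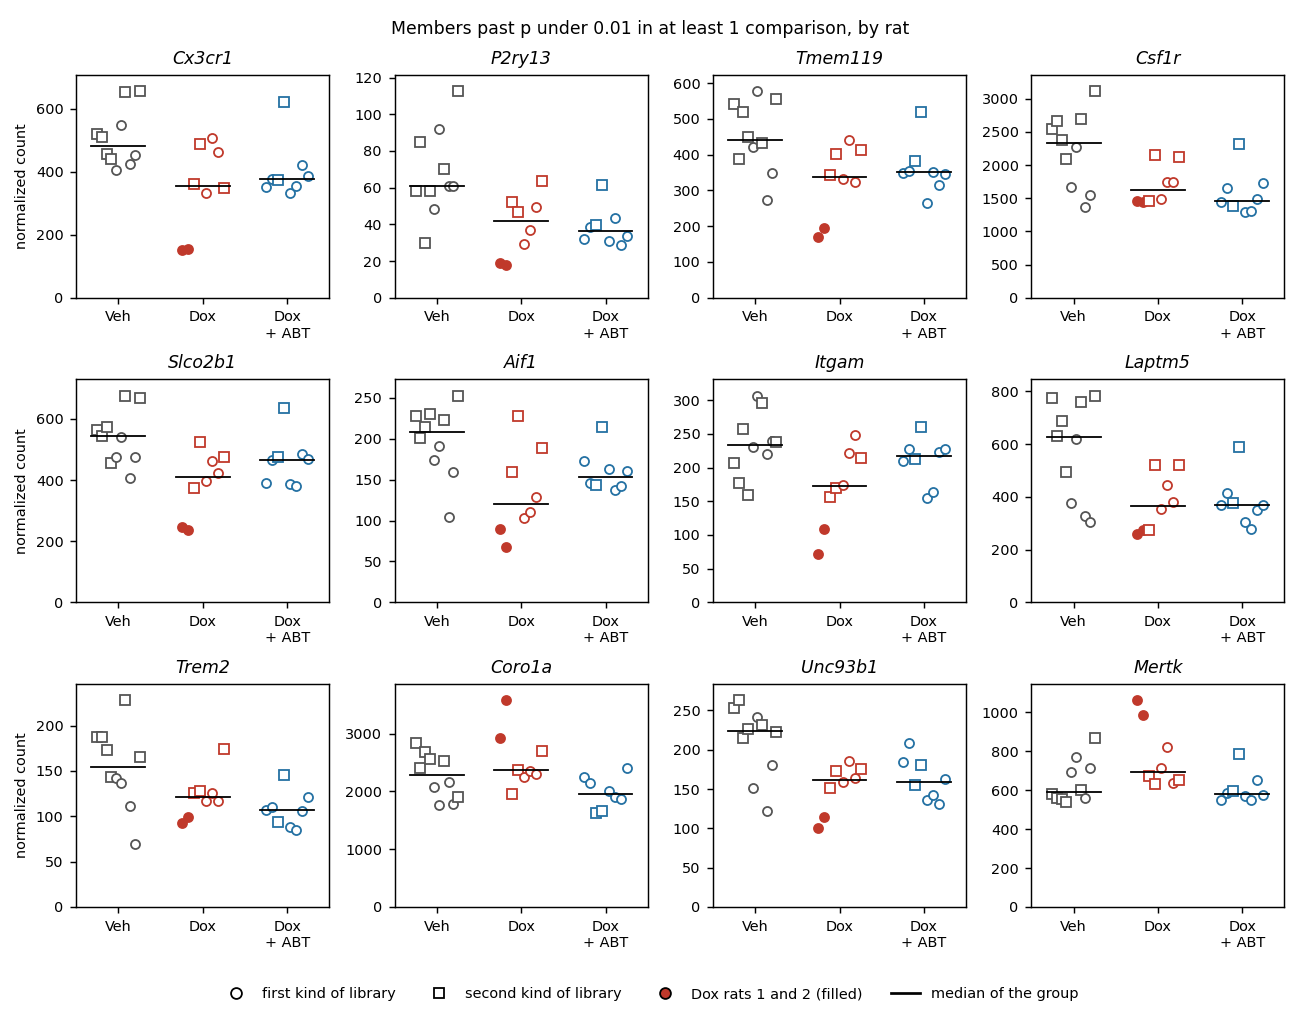
Normalized counts of the 12 members past p under 0.01 in at least 1 comparison, by rat and group, each panel with its own vertical axis from 0. Circles and squares are the first and second kind of library, filled circles are Dox rats 1 and 2, and lines are group medians. The filled circles sit lowest in panels such as Cx3cr1 (151 and 156) and highest in Mertk (1061 and 983).

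The 7 myeloid identity members were all below 0 in Dox against Veh (median -0.45) and 3 passed. Without the pair of Dox rats all 7 were still below 0 (median -0.27) and 0 passed. Aif1, the gene for the calcium-binding protein IBA1 that is the usual microglial stain, ran from 104 to 253 in Veh (median 208), from 68.0 to 228 in Dox (median 120.2) and from 137 to 215 in Dox + ABT (median 153). It was below the Veh median in 7 of 8 Dox rats, while Dox rat 7 reached 228 and lay within the upper Veh values. Aif1 fell by 0.61 ± 0.18 (SE) on the log2 scale (limma, p = 0.00237, adjusted p = 0.233), and the difference without Dox rats 1 and 2 was -0.39 (p = 0.0328).

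Itgam, the integrin subunit CD11b, had 159 to 307 normalized counts in Veh (median 234), 72.1 to 248 in Dox (median 172) and 155 to 260 in Dox + ABT (median 218). It was lowest in Dox rats 1 and 2 (72.1 and 109), and the Dox + ABT rats lay within or just under the Veh range. Itgam fell by 0.51 ± 0.18 (SE) on the log2 scale in Dox (limma, p = 0.00770, adjusted p = 0.318). The call was lost without Dox rat 1, 2 or 5, without Veh rat 3, 5, 6, 9, 11 or 12 (p up to 0.0269), without both Dox rats (-0.23, p = 0.108) and with library kind as a covariate (-0.50, p = 0.0105).

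Laptm5, a lysosomal transmembrane protein of haematopoietic cells, ran from 304 to 783 in Veh (median 625), from 259 to 522 in Dox (median 367) and from 278 to 589.9 in Dox + ABT (median 369). All 16 Dox-treated rats were below the Veh median, yet the Veh group itself was wide, with 3 of its first-kind libraries at 304 to 378. It fell by 0.58 ± 0.19 (SE) on the log2 scale in Dox (limma, p = 0.00581, adjusted p = 0.306). That call was lost without Dox rat 1, 2 or 5 and without Veh rat 1, 2, 3, 9 or 12 (p up to 0.0166), and the difference without both Dox rats was -0.43 (p = 0.0476). Cd37, Cd53, Ly86 and Ptprc, the gene for CD45, had differences from -0.45 to -0.06 and did not pass.

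The promoters of 3 called members are shown because PU.1 and RUNX1, factors that drive myeloid genes, are themselves among the members. Of the 7 members with a promoter that were lower against Veh, 5 held a match in the 250 bases before the start site and P2ry13 and Slco2b1 held 0, as did the promoters of Coro1a and Mertk, and the 3 shown were chosen among those with a match. RefSeq promoters of build GRCr8 (250 bases before to 50 after the start site) matched 29 of the 43 members, Dock2 among them. The core PU.1 motif GAGGAA, read on both strands, was in 16 of these 29 (55.2%) and in 27.6% of 33469 promoters of the same length. Its longer form GAGGAAGT, which contains it, was in 3 of 29 (10.3%) and in 2.42% of all, and the RUNX motif TGTGGT was in 6 of 29 (20.7%) and in 17.3%. The ligand genes Cd200 and Cx3cl1 also held GAGGAA. Of 7 members lower in a Dox-treated group that had a promoter, 4 held GAGGAA, 0 held GAGGAAGT and 3 held TGTGGT. A match of these letters is no evidence of binding. The 250 bases before the start site are given 5′ to 3′ on the gene's strand with motif matches of either strand in capitals (TTCCTC is GAGGAA on the other strand), for Itgam at chr1:192089342-192089591 (plus strand), Laptm5 at chr5:148371630-148371879 (plus strand) and Trem2 at chr9:20151780-20152029 (minus strand).
Itgam: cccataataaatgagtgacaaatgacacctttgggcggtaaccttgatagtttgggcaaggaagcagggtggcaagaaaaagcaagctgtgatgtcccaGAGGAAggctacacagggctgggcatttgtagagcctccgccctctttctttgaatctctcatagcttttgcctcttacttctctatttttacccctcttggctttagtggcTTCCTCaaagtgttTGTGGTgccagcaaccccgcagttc
Laptm5: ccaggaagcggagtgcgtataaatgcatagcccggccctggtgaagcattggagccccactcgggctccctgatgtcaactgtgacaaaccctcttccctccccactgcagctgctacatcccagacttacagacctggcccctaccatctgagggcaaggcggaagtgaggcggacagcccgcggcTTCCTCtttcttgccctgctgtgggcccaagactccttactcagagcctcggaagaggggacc
Trem2: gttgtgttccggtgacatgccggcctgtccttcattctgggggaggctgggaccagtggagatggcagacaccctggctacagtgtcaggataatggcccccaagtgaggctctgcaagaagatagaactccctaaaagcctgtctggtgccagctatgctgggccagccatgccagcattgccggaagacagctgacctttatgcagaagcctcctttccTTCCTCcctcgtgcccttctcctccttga
Itgam held matches to both factors' motifs in this stretch, and Laptm5 and Trem2 held a single GAGGAA each.

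Of the 6 tested activation members, 4 were below 0 in Dox against Veh and only Unc93b1 passed. Unc93b1, the chaperone of the nucleic acid-sensing Toll-like receptors, ran from 122 to 263 in Veh (median 224), from 101 to 185 in Dox (median 162) and from 131 to 209 in Dox + ABT (median 159). All 8 rats of each Dox-treated group were below the Veh median, and 2 of them, Dox rats 1 and 2, were below the Veh range. It fell by 0.45 ± 0.14 (SE) on the log2 scale (limma, p = 0.00388, adjusted p = 0.268). The call was lost in its highest transcript taken alone (p = 0.142) and without Dox rat 1 or 2 (p up to 0.0135), and the difference without both was -0.29 (p = 0.0471).

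Csf2rb, the shared beta subunit of the receptors for GM-CSF and interleukin 3, lay between 11.8 and 35.0 normalized counts in 24 rats and at 250.5 and 249 in Dox rats 1 and 2. The difference of Dox from Veh was 0.58 (p = 0.196) with all rats and -0.32 (p = 0.155) without the pair. In the same pair Ncf1, a subunit of the phagocyte NADPH oxidase, was at 33.9 and 31.8, below the 73.3 to 137 of all others. The oxidase subunits Cybb and Cyba and the lysosomal gene Cd68, whose values reached only 35.4, 120.0 and 25.5, gave differences from -0.70 to 0.06 that did not pass (p from 0.0503 to 0.861).

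None of the 5 ITAM signalling members passed in Dox against Veh. The largest difference was that of Fcer1g, an adaptor of Fc receptors, at -0.56 (p = 0.0103), and Trem2 (-0.29), Inpp5d (-0.14), Tyrobp (-0.11) and Plcg2 (0.04) had p-values from 0.0905 to 0.814. The transcription factor genes did not pass either. Irf8 differed by 0.02, with a 95% interval of -0.22 to 0.26, Spi1 by -0.38 (-0.84 to 0.08) and Runx1 by 0.42 (-0.39 to 1.23). Spi1 was at 14.1 in Dox rat 2 and between 42.0 and 63.7 in the other 7 Dox rats. Among the cytoskeletal members Arhgdib (-0.41), Hcls1 (-0.25) and Coro1a (0.17) did not pass. Without Dox rats 1 and 2 none of these 11 members passed either, with medians of -0.18 for ITAM signalling, 0.01 for the transcription factors and -0.18 for the cytoskeleton.

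**Figure D3:**
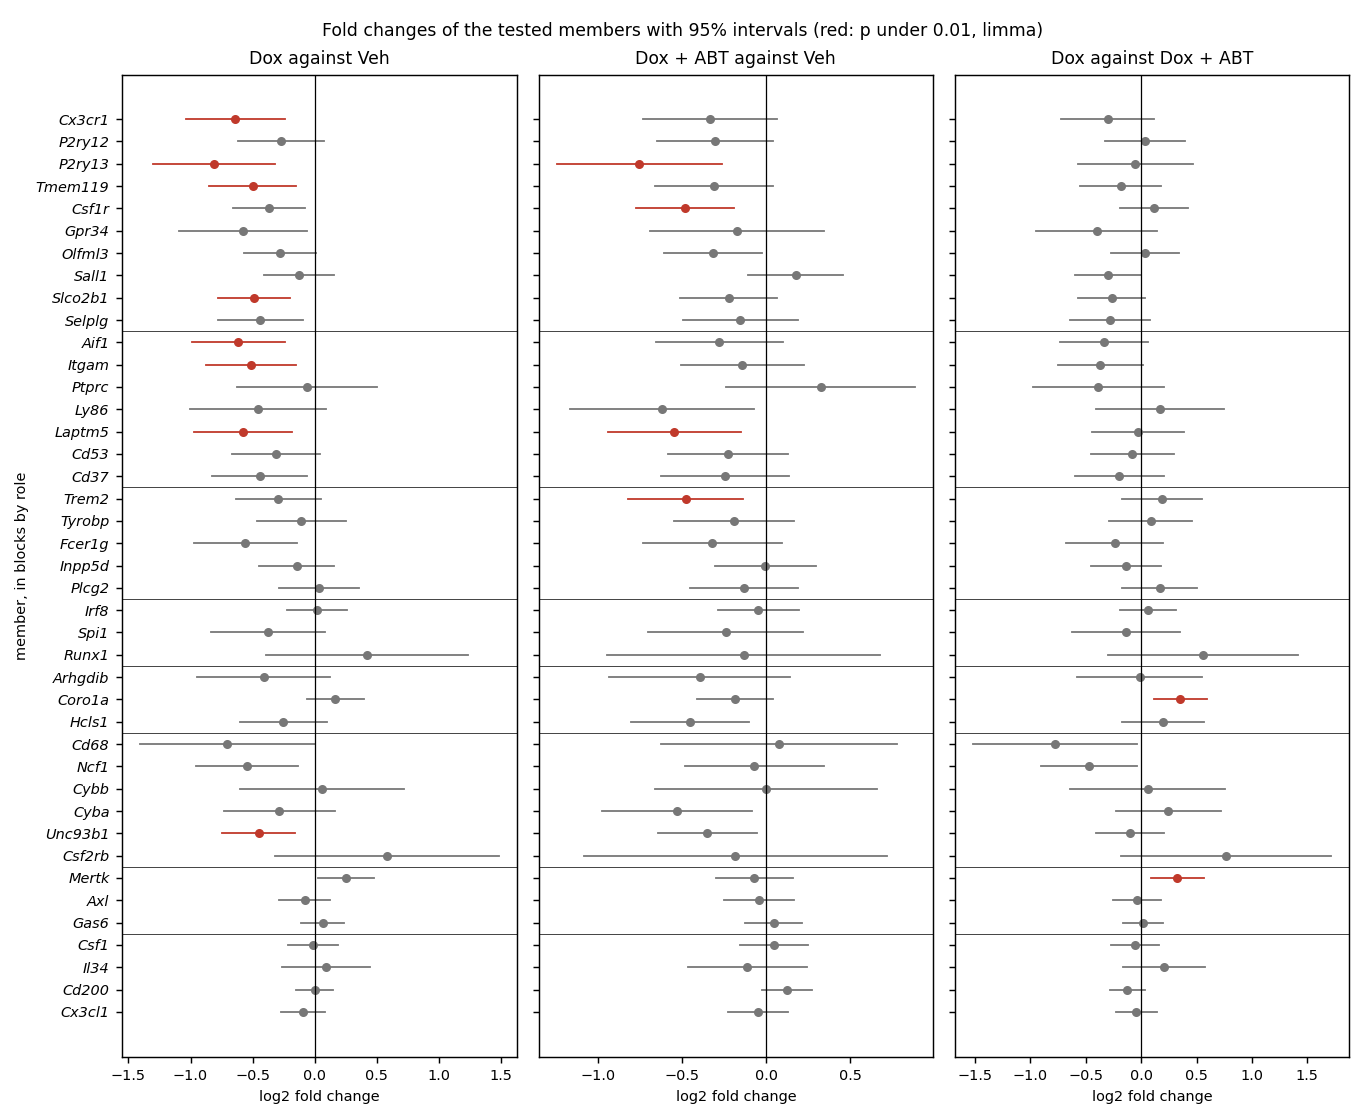
Fold changes on the log2 scale (points) with 95% intervals (lines) of the 41 tested members in the 3 comparisons, members in blocks by role. Red marks p under 0.01 in limma's test: 8 members in Dox against Veh, 4 in Dox + ABT against Veh, all to the left of 0, and 2 to the right of 0 in Dox against Dox + ABT.

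**Figure D4:**
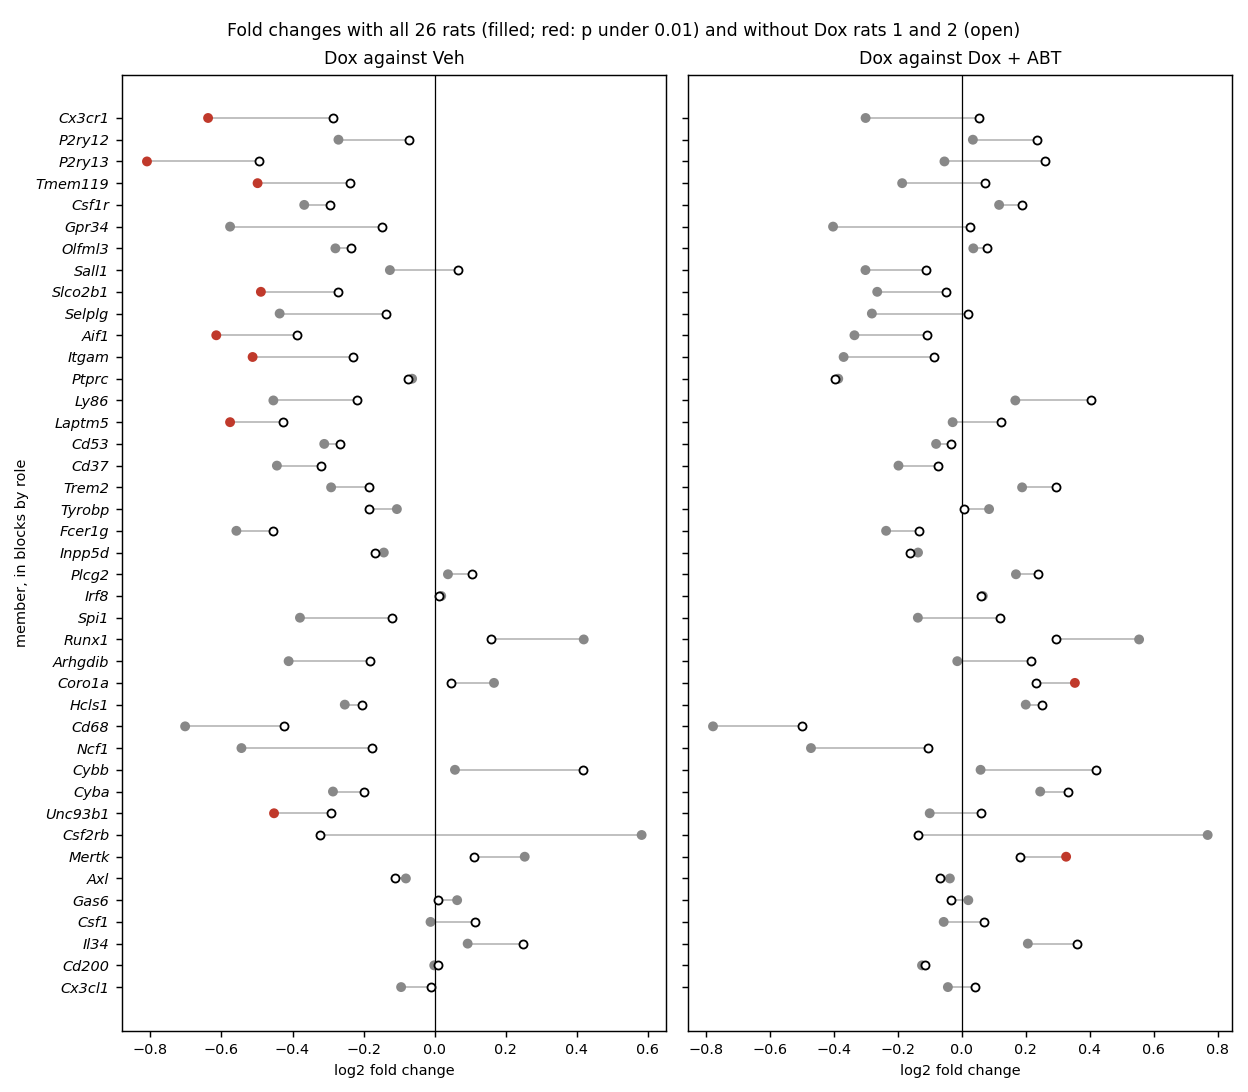
Fold changes on the log2 scale with all 26 rats (filled, red at p under 0.01) and without Dox rats 1 and 2 (open) for the 41 tested members. In Dox against Veh the homeostatic points move toward 0, Cx3cr1 from -0.64 to -0.28, and Csf2rb crosses it from 0.58 to -0.32.

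Dox + ABT against Veh asked how rats given the senolytic with Dox compared with controls. Here 4 of the 41 members were lower at p under 0.01 and 0 were higher, where 3.95% of all tested genes were lower and 3.89% higher. The 4 were Csf1r, P2ry13, Laptm5 and Trem2. In all, 35 fold changes were below 0, with a median of -0.19 against 0.00 over all tested genes. The adjusted p-values of the 4 ran from 0.109 to 0.120. With library kind as a covariate Csf1r alone passed (1 of 41, beside 1.87% lower over all genes) and the median was -0.11. With the kind split at the gap in the component instead, or with the ribosomal protein share as a covariate, 0 of 41 passed (0.731% and 0.808% lower over all genes), and each fit had 2 members with a p under 0.05.

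Csf1r fell by 0.48 ± 0.14 (SE) on the log2 scale in Dox + ABT (limma, p = 0.00199, adjusted p = 0.109). All 8 rats were below the Veh median of 2329 and 2 were below the lowest Veh rat, while Dox + ABT rat 4, at 2318, was far above the next value of its group (1726). The kind covariate gave -0.34 (p = 0.00657), and the highest transcript alone -0.43 (p = 0.0101). P2ry13 fell by 0.76 ± 0.24 (SE; p = 0.00396, adjusted p = 0.111), and with the covariate the difference was -0.61 (p = 0.0152). Csf1r and P2ry13 stayed past p under 0.01 in each fit that left out a single rat.

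Trem2, the lipid-sensing receptor that signals through TYROBP, ran from 69.3 to 228 in Veh (median 154), from 93.0 to 174 in Dox (median 121) and from 84.4 to 145 in Dox + ABT (median 107). All 8 Dox + ABT rats were below the Veh median but none was below the lowest Veh rat. Trem2 fell by 0.48 ± 0.17 (SE) on the log2 scale (limma, p = 0.00737, adjusted p = 0.118), and Laptm5 by 0.55 ± 0.19 (SE; p = 0.00832, adjusted p = 0.120). Both calls were lost with the kind covariate (-0.32, p = 0.0311, and -0.35, p = 0.0339). Both were also lost without Veh rat 1, 2, 3, 9 or 12 and without Dox + ABT rat 1, 3, 5, 6 or 11, and that of Laptm5 without Veh rat 6 or Dox + ABT rat 12 as well (p up to 0.0183 and 0.0215).

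Several members passed in only 1 of the comparisons with Veh. Csf1r and Trem2 passed only in Dox + ABT. Their Dox medians were 1.11 and 1.14 times those of Dox + ABT, and neither passed in the direct test of these groups. The following 6 passed only in Dox. Cx3cr1 differed by -0.34 (p = 0.0932), Slco2b1 by -0.23 (p = 0.120), Tmem119 by -0.31 (p = 0.0774), Aif1 by -0.28 (p = 0.140), Itgam by -0.14 (p = 0.428) and Unc93b1 by -0.35 (p = 0.0207) in Dox + ABT against Veh. The direct test of Dox against Dox + ABT gave p-values from 0.0600 to 0.515 for these 6 genes. For Aif1 alone among the 6, library kind as a covariate brought this p under 0.01.

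Dox against Dox + ABT asked what the senolytic changed in Dox-treated rats. Of the 41 members, 0 were lower and 2 were higher in Dox at p under 0.01, where 1.71% of all tested genes were lower and 2.32% higher. The median over the members was -0.04 against 0.00 over all tested genes, and 5 members had an unadjusted p under 0.05. Coro1a, an actin-binding protein of leukocytes that is also found in neurons, had 1758 to 2843 normalized counts in Veh (median 2280.2), 1955 to 3575 in Dox (median 2367) and 1621 to 2410 in Dox + ABT (median 1954). All 8 Dox rats were above the Dox + ABT median and 3 were above every Dox + ABT rat, among them Dox rats 1 and 2 (2916 and 3575). Coro1a was 0.35 ± 0.12 (SE) higher in Dox (limma, p = 0.00551, adjusted p = 0.214). The call was lost without Dox rat 1, 2 or 14 and without Dox + ABT rat 3 or 4 (p up to 0.0180), and the difference without both Dox rats was 0.23 (p = 0.0505).

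Mertk, the receptor kinase through which microglia and astrocytes engulf apoptotic material, ran from 539 to 868 in Veh (median 588), from 632 to 1061 in Dox (median 692) and from 547 to 787 in Dox + ABT (median 581). All 8 Dox rats were above the medians of both other groups, with Dox rats 1 and 2 (1061 and 983) above all of the other 24. Mertk was 0.33 ± 0.12 (SE) higher in Dox than in Dox + ABT (limma, p = 0.00969, adjusted p = 0.246) and 0.25 ± 0.11 (SE) above Veh, which did not pass (p = 0.0310). The first value was 0.18 (p = 0.103) without Dox rats 1 and 2, and -0.070 among the 5 rats of both groups with the second kind of library. It stayed past p under 0.01 in 8 of the 26 fits that left out a single rat. The call was lost (p up to 0.0306) without Veh rat 1, 2, 3, 5, 9, 10 or 11, without Dox rat 1, 2, 9 or 10, and without any Dox + ABT rat other than rat 4. Gas6, the ligand of MERTK and AXL, differed by 0.02 and Axl by -0.04 between Dox and Dox + ABT, with p-values of 0.817 and 0.731.

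With library kind as a covariate, Aif1 was also lower in Dox than in Dox + ABT (-0.41, p = 0.00775), compared with -0.34 (p = 0.0951) in the fit without it. Dropping Dox rats 1 and 2 left the difference at -0.11 (p = 0.554). No member passed p under 0.01 between Dox and Dox + ABT without that pair, where 1.15% of all genes were lower and 1.82% higher, and 0 members had a p under 0.05.

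The 4 ligands passed in none of the 3 comparisons, with all rats or without Dox rats 1 and 2. In Dox against Veh 3 of the 4 were below 0 with all rats and 1 of 4 without the pair. Csf1, a ligand of CSF1R, had 400.5 to 518 normalized counts in Veh (median 438), 327 to 547 in Dox (median 476) and 331 to 552 in Dox + ABT (median 469). The Dox-treated rats spread to both sides of the Veh range. The difference of Dox from Veh was -0.01, with a 95% interval of -0.21 to 0.19 (limma, p = 0.906). Dox rats 1 and 2 had the lowest Dox values (327 and 355), and the difference without them was 0.11 (p = 0.226).

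Il34, the other ligand of CSF1R, ran from 229 to 441 in Veh (median 346), from 211 to 508 in Dox (median 373) and from 168 to 473 in Dox + ABT (median 330.5). Here too the groups overlapped almost completely. Dox differed from Veh by 0.09 (-0.26 to 0.45, p = 0.596), or by 0.25 (p = 0.167) without Dox rats 1 and 2, and from Dox + ABT by 0.21 (-0.17 to 0.58, p = 0.267).

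Cx3cl1, the membrane-bound chemokine of neurons, had 7452 to 11156 normalized counts in Veh (median 8661), 6581 to 10284 in Dox (median 8279) and 7657 to 9466 in Dox + ABT (median 8611). Dox rats 1, 2 and 5 were below every Veh rat and the other 5 lay within the Veh range. The difference was -0.09 (-0.27 to 0.08, p = 0.285) in Dox and -0.05 (-0.23 to 0.13, p = 0.558) in Dox + ABT. The first was -0.0094 (p = 0.915) without Dox rats 1 and 2.

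Cd200, a neuronal membrane protein read by an inhibitory myeloid receptor, ran from 722 to 1038 in Veh (median 777), from 699 to 893 in Dox (median 799.8) and from 736 to 1000.2 in Dox + ABT (median 862). The Dox + ABT rats were above the Veh median in 7 of 8 cases, all within the Veh range. Cd200 differed by 0.00 (-0.15 to 0.15, p = 0.986) in Dox and by 0.12 (-0.03 to 0.27, p = 0.105) in Dox + ABT. Where the receptors Cx3cr1 and Csf1r were called, the interval of each of their ligands in the same comparison included 0.

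**Figure D5:**
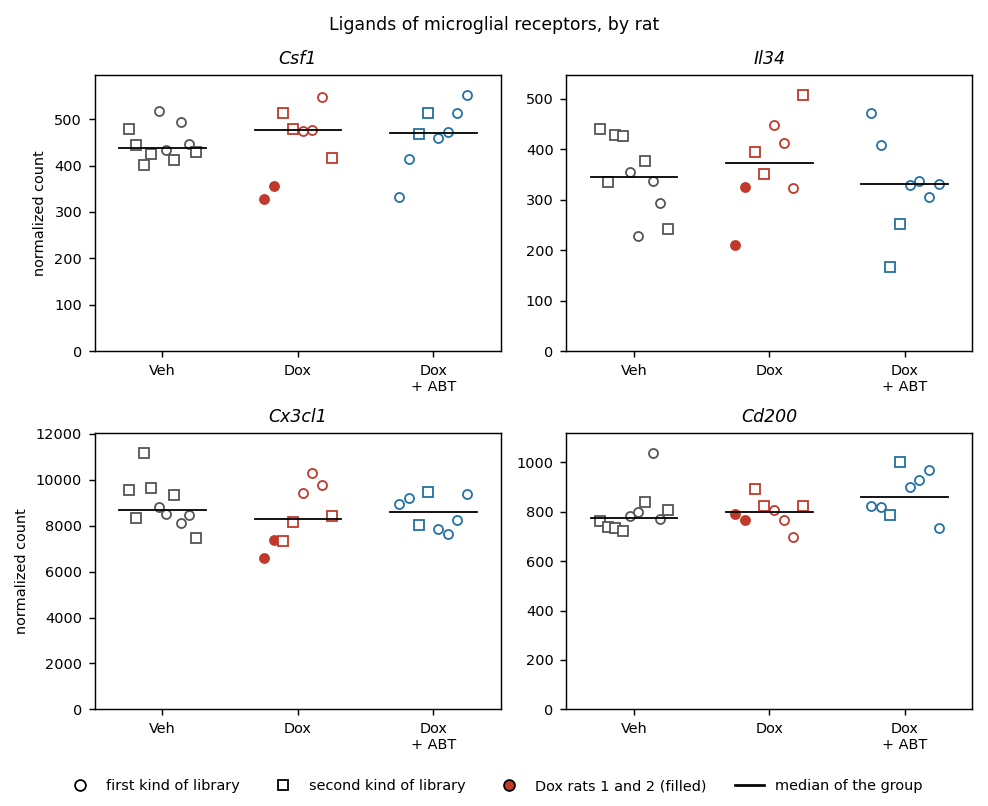
Normalized counts of the ligands Csf1, Il34, Cx3cl1 and Cd200 by rat and group, with vertical axes from 0, circles and squares for the first and second kind of library, filled circles for Dox rats 1 and 2 and lines for group medians. The groups overlap in each panel, and the Cx3cl1 median was 8661 in Veh, against 8279 and 8611 in the groups given Dox and Dox + ABT.

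Members also varied together between rats of the same group. Over 45 pairs of homeostatic members the median Pearson correlation of the deviations from the group means was 0.60 (from -0.13 to 0.92, 26 rats), and it was 0.57 within groups and kinds of library and 0.45 without Dox rats 1 and 2. With all rats Slco2b1 (median 0.73), Cx3cr1 (0.73) and Ncf1 (0.72) were closest to the homeostatic members, and Csf2rb was the farthest, at -0.62. That order rested on the pair: without it these medians were 0.53, 0.53, 0.48 and 0.087, Fcer1g (0.62), Arhgdib (0.61) and Laptm5 (0.60) were closest, and Il34 (-0.28) was farthest. Over 40 pairs of a ligand with a homeostatic member the median was 0.19, and it was -0.03 without the pair of rats. These correlations are descriptions: the points share a library, its depth and its scaling.

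In Dox + ABT, rat 4 was the highest of its group in 28 of the 41 members, among them all homeostatic members except Gpr34. The 10 homeostatic members summed to 5828 normalized counts in this rat and to 3549 to 4315 in the other 7. In Dox the same sum was 2741 and 2727 in rats 1 and 2 and 3749 to 4845 in the other 6, and in Veh it ran from 3757 to 6726.

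Of 44 further tested microglial genes, 10 were lower and 0 higher in Dox than in Veh (1.85% and 1.02% over all genes), with a median of -0.20. Fcrl2, an Fc receptor-like gene, fell by 1.05 (p = 6.08e-06, adjusted p = 0.0326), and Lgmn, a lysosomal protease, by 0.27 (p = 0.000313). Cd180, a Toll-like receptor homologue, also fell, from a median of 65.7 normalized counts in Veh to 40.0 in Dox (p = 0.000233). Unlike the members, these 3 genes stayed past p under 0.01 without Dox rats 1 and 2 (Fcrl2 -0.82, p = 0.000103, Cd180 -0.67, p = 0.00351, Lgmn -0.26, p = 0.00135), where 3 of the 44 were lower (0.789% over all genes). With library kind as a covariate 6 of the 44 were lower, beside 240 of all 15595 tested genes. In Dox + ABT against Veh 1 of the 44 was lower (Lcp2, -0.31) and 1 higher (Lpcat2, 0.48), under the 3.95% and 3.89% over all genes, and both calls were lost with that covariate (p = 0.0153 and 0.0317). In Dox against Dox + ABT 3 were lower, Fcrl2 (-0.86) and the kinase gene Syk (-0.44) among them, and 1 higher, Cd14 (1.31). Over all genes 1.71% were lower and 2.32% higher there. Without Dox rats 1 and 2, 1 was lower (Fcrl2, -0.62, p = 0.00266) and 0 higher, with Syk at -0.24 (p = 0.0389) and Cd14 at 0.60 (p = 0.0530). In that fit 179 of all 15595 genes were lower and 284 higher. Cd14, the coreceptor for lipopolysaccharide, was at 163 and 164 in Dox rats 1 and 2 and at 4.47 to 36.3 in the other 24.

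Of 14 genes linked to disease-associated and inflammatory microglia, Tnf alone had a p under 0.01. With all rats it was 1.47 above Veh (p = 0.00633) and 2.03 above Dox + ABT (p = 0.00059). The kind covariate gave p = 0.0106 for Tnf against Veh. Tnf was at 44.5 and 71.0 in Dox rats 1 and 2 and at most at 8.80 in the other rats. It reached the filter only through that pair: its mean was 6.92 over all rats and 2.69 over the other 24. Tnf was thus tested only because of high values in the group where it was called. Its p-values also rest on very low values in the other rats, and no conclusion is drawn from them. Without the pair Tnf was under the filter, and it differed from Veh by 0.59 and from Dox + ABT by 1.15. Fcgr2b (184 and 200.2 against 38.4 to 115 in the other 24 rats) and Il1r1 (38.9 and 56.3 against 0 to 31.1) were also high in that pair and were picked after their values were seen. Of 14 genes for ligand and receptor partners, 0 passed in Dox against Veh. The cytokine gene Tgfb1 fell by 0.50 in Dox + ABT against Veh, a call lost with the kind covariate (-0.34, p = 0.0186). Adam10, a protease that sheds membrane proteins such as CX3CL1, and Tgfbr1 were 0.38 and 0.41 lower in Dox than in Dox + ABT on the log2 scale with all rats. Neither passed without Dox rats 1 and 2 (-0.26, p = 0.0477, and -0.27, p = 0.0640).

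Markers of other cells moved as well. In Dox against Veh 3 of 8 astrocyte markers were lower (Gfap -0.75, Aqp4 -0.43 and Aldh1l1 -0.43), where 1.85% of all tested genes were. These 3 also passed without Dox rats 1 and 2. The list did not fall as a whole: 4 of its 8 fold changes were above 0 and the median was -0.03. Its summed levels were 51609 to 86823 in Veh and 45916 to 63825 in Dox. Of the oligodendrocyte markers 2 of 7 were lower (Ugt8 -0.45 and Cnp -0.39), with sums of 34948 to 105331 in Veh and 41814 to 63404 in Dox, and 0 passed without the pair. Cnp was also lost with the kind covariate (p = 0.0111). Of 8 neuronal markers 0 passed (67122 to 106750.0 in Veh and 79458 to 97994 in Dox). In Dox + ABT against Veh the astrocyte marker Aldh1l1 (-0.47, p = 0.00175) and the granule cell marker C1ql2 (-0.46, p = 0.000697) were lower, 1 of 8 in each list, and 0 of 7 oligodendrocyte markers passed. The sums in Dox + ABT were 55265 to 75731 for astrocytes, 40298 to 91917 for oligodendrocytes and 68359 to 95084 for neurons. In Dox against Dox + ABT 1 of 8 astrocyte markers (Aqp4, -0.45) and 1 of 7 oligodendrocyte markers (Ugt8, -0.65) were lower and 1 of 8 neuronal markers (Rbfox3, 0.61, p = 0.00837) was higher, and these 3 also passed without Dox rats 1 and 2. Rbfox3 ran from 3011 to 10248 normalized counts among the Dox rats outside the pair, with a median of 3633. With the kind covariate Gfap (-0.44, p = 0.000834) and Mog (-0.33, p = 0.00945) were also lower in Dox than in Dox + ABT. The part of these shifts in the microglial result was not tested.

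Among cells that share myeloid genes, 0 of 5 tested markers of border macrophages passed in any comparison, and the sums of all 6 measured ones were 68.5 to 129 in Veh, 56.6 to 157 in Dox and 65.4 to 113 in Dox + ABT. Lyz2 was the only monocyte and neutrophil marker above the filter and was 0.42 lower in Dox than in Dox + ABT (p = 0.00541, and p = 0.0179 without Dox rats 1 and 2), while S100a8, S100a9 and Mpo were listed at 0 in 10, 12 and 12 of the 26 rats. Lymphocyte markers (2) did not pass. The microglial markers Cx3cr1, P2ry12 and Tmem119 were above 0 in all 26 rats, at no less than 93.0 normalized counts. Red cell markers summed to 2327 to 25997 in Veh, 3608 to 128552 in Dox and 3172 to 11576 in Dox + ABT. They did not pass in Dox against Veh (0 of 4, and 4 of 4 higher with the kind covariate), and without Dox rats 5 and 7, which carried the highest values, 10 of the 41 members were lower in Dox, beside 4.07% of all genes. In Dox against Dox + ABT 0 of the 4 red cell markers passed, and 2 of 4 were higher with the kind covariate (Alas2, p = 0.00832, and Hba-a2, p = 0.00941). Endothelial (5) and choroid plexus or mural (4) markers gave 0 calls against Veh, and Slc2a1 was 0.47 higher in Dox than in Dox + ABT, a call lost without Dox rats 1 and 2 (0.33, p = 0.0302). In that fit the endothelial gene Cldn5 was 0.78 higher (p = 0.00781) and Ttr of the choroid plexus was lower in Dox than in Dox + ABT (-2.21, p = 0.00181).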

How the data were processed

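Polyadenylated RNA from the DG of 26 rats was sequenced on the Ion Proton, 1 library per rat. Values were deposited as a normalized signal, for which the authors aligned reads to rn6 with STAR 2.5.3a in Partek Flow, estimated counts per transcript and scaled them by the median ratio method. Raw counts were not used here. From 75.8 to 80.1% of low values (under 20) were whole multiples of a step per library to within 0.02, too few for a count test, and the steps gave the estimated reads.

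The 24012 transcript rows were summed to 17910 gene IDs, and 15595 of these reached a mean of 5. Differences were tested with limma 3.58.1 (R 4.3.3) on log2(value + 1), with a variance trend, 3 groups in a single fit, two-sided. Fold changes on this scale understate changes of low genes. A gene was called at an unadjusted p under 0.01, the threshold of the study's methods, with Benjamini-Hochberg values over all tested genes beside it. The fit was tested on simulated data. P-values set a difference between groups against the spread between rats.

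Members past the threshold, the ligands, Cx3cr1 and Csf1r were described in full, and at most 3 genes with the smallest p came from each further list. Genes named for Dox rats 1 and 2 were chosen from their values. A marker of the oligodendrocyte list is not reported here and was left out of its count and sums. The members and lists were chosen with earlier results of these data known. Each table column matched a rat's label (0 left over). Python 3.11.15 with matplotlib 3.10.9 made the figures. Promoters came from RefSeq (GRCr8), and no rn6 positions are given. The closing section gives the alternatives tried.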

Additional observations from a re-analysis of the deposited data

Results flagged for a closer look

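Within each group, the highest and lowest rat of every member was compared with its nearest neighbour by Dixon's criterion at the 95% level, which chance exceeds in about 5% of groups. It was exceeded in 21 of 126 gene and group combinations, and 12 of the 21 were high values of Dox + ABT rat 4.

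In this rat Cx3cr1 was at 620.1 normalized counts (next highest 420.4), P2ry13 at 61.4 (43.4), Tmem119 at 519 (381), Csf1r at 2318 (1726) and Slco2b1 at 637 (485). Olfml3 was at 114.5 (82.9), Aif1 at 215 (173), Laptm5 at 589.9 (413) and Cd53 at 78.9 (63.3). Fcer1g was at 242 (147), Ncf1 at 135 (106) and Mertk at 787 (650.0). Its library was of the second kind. Without it, 7 members were lower in Dox + ABT than in Veh, compared with 4. The share over all genes in that fit is not given here, so the change is not read as a result about the members.

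Dox rat 7 was high in Olfml3 at 105 (next 81.3), Ly86 at 41.2 (21.5) and Fcer1g at 198 (134). Dox rat 14 had 174 for Trem2 (128) and Dox rat 5 had 35.4 for Cybb (at most 19.3 in the other 25 rats). Dox rat 2 was low in Spi1, at 14.1 (next lowest 42.0). Veh rat 3 had 32.9 for Runx1 (17.6) and Veh rat 10 had 1038 for Cd200 (839), and Dox + ABT rat 11 had 25.5 for Cd68 (14.5). Of the pair Dox rats 1 and 2, rat 2 met the criterion for Spi1 and rat 1 for no member. The criterion looks at the gap to the nearest neighbour, so rats displaced together, as this pair was for Csf2rb, hide each other from it. The lack of flags for the pair therefore says nothing about how far apart it stood.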

How the results depend on the processing

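Counts are of the 41 members past p under 0.01, where the report gives 8 for Dox against Veh, 4 for Dox + ABT against Veh and 2 for Dox against Dox + ABT. Calls over all 15595 tested genes also differed between fits. In Dox against Veh 289 genes were lower, 240 with the kind covariate and 123 without Dox rats 1 and 2. A changed count of members is therefore no result about them by itself. The alternatives without Dox rats 1 and 2 or 5 and 7, with the kind split at the gap and with the ribosomal protein share were chosen after seeing the data. Leaving out Dox rats 1 and 2 gave 0 of 41 in Dox against Veh (6 at p under 0.05) and 0 in Dox against Dox + ABT (0 at p under 0.05), and with library kind as a covariate too, 0, 2 and 0. The members' median of Dox against Veh remained below 0, at -0.18 and -0.14.

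Array quality weights gave 14 (Dox against Veh) and 16 (Dox + ABT against Veh), with weights from 0.344 to 2.99 per library, where 1708 genes were lower and 1442 higher, and 2872 lower and 2425 higher, of all 15595. Under these weights 14, 17 and (Dox against Dox + ABT) 1 members had an adjusted p under 0.05, as did 3 for Dox + ABT against Veh in the second kind alone, 1 to 3 there without Veh rat 10 or 11 or Dox + ABT rat 4, and 1 for Dox against Veh without Dox rats 5 and 7. Fitting only the compared groups gave 5 for Dox against Veh and 1 for Dox against Dox + ABT. In the first kind of library alone the counts were 4 (2 lower and 2 higher, Runx1 and Coro1a) and 1 against Veh, and in the second kind 3 for Dox against Veh. With the ribosomal share they were 5 and 0. The kind covariate gave 1 for Dox + ABT against Veh, and the gap split gave 0 there and 4 for Dox against Dox + ABT. Without a variance trend and with quantile normalization, Dox against Dox + ABT gave 1 and 0. Mertk in Dox against Dox + ABT reversed to -0.070 (p = 0.718) in the second kind alone. Causes were not tested. Leaving out single rats gave 4 to 12, 2 to 7 and 0 to 3. The highest transcript of each member in place of the sum gave 7, 3 and 2 and ended the calls of Unc93b1 (Dox against Veh, p = 0.142), Csf1r (Dox + ABT against Veh, p = 0.0101) and Mertk (p = 0.0105). Other pseudocounts, filters and robust or trimmed-mean fits moved no count by over 1.5 times.

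Rats shared replicate numbers without a stated pairing. Same-numbered rats of different groups had a median correlation of -0.01 (from -0.22 to 0.44, 16 pairs). With the number as a block the counts were 7, 2 and 1. Depth of the estimated counts limits low members such as Cd68, Runx1 and Il1b.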
